A study of Mus musculus with 2 samples.

Results

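The array carried probes for 30 small nuclear, small nucleolar and structural RNAs, of 37008 gene names in all. They were chosen by name: RNAs whose array name began with Rnu, Snora, Snord, Scarna, Rn7s, Rn4.5s or Rprl, together with Rpph1, Rmrp, Terc, Rn28s1 and Rn18s. Each was read by 1 probe of 60 bases spotted once, and all 30 probes were well above background on both arrays. The cells were 46C mouse embryonic stem cells grown in 15% serum with LIF at 1000 U/ml on feeder cells, which were removed before harvest. The 2 groups were shCtrl, the control, whose sample title calls it WT, and shLincU, in which the long noncoding RNA LincU was targeted by a short hairpin. Each group had 1 array, so no difference below has a replicate check, no test between groups was possible and no p-value is given. LincU itself was not analysed here, so the knockdown was not checked and directions rest on the labels.

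These RNAs have no protein product. Ribosomal RNAs are made by RNA polymerase I and form the core of the ribosome; polymerase III makes 7SK, the 7S RNA of the signal recognition particle, 4.5S RNA and the RNAs of RNase P and RNase MRP. Most spliceosomal small nuclear RNAs (snRNAs), U3 and telomerase RNA come from polymerase II genes of their own, whereas most other small nucleolar RNAs (snoRNAs) are cut out of introns of longer host transcripts. Most box C/D snoRNAs guide 2′-O-methylation, most box H/ACA snoRNAs guide pseudouridylation, and Cajal body RNAs (scaRNAs) guide the same changes on snRNAs. As mature molecules most of these RNAs carry no poly(A) tail. Kits of the kind named in the labels usually start copying at poly(A), although the labels do not state the primer. Whether a probe read the mature RNA, a precursor or a tailed form was not tested.

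The 75th percentile of the processed intensity was 626 for shCtrl and 420 for shLincU, and 60.9% and 57.9% of their probes were well above background. Differences are given as log2, shLincU minus shCtrl, each array taken relative to its own 75th percentile. The scanner's error model gave most single probes an error of about 0.20 on a difference. Most of it comes from a preset multiplicative error of 0.1, so it is not a measured spread. The 300 probes with 10 spots gave an SD of 0.038 and 0.039 between spots, or 0.054 for a difference. Neither covers the spread between cultures or labellings. Of 10 embryonic stem cell markers all were measured, with a median difference of 0.0074. Of 10 fibroblast markers for the feeder cells 9 were measured, with a median of -1.20; 7 lay below 0 and 5 were at least 2-fold lower on the shLincU array, among them Dcn at -2.41 and Col1a2 at -1.20. Col1a1 at 0.45 and Col3a1 at 0.64 had the opposite sign. Whether these markers reflect feeder RNA or the stem cells themselves cannot be told apart with 1 array per group. Any part of feeder RNA in the results below was not tested.

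The 30 RNAs had a median difference of 0.61, against 0.020 for the 21018 genes measured on both arrays. Of the 30, 28 lay above 0, against 53.1% of all genes, and 19 lay at 0.5 or more, against 6.75% of all genes. None lay at -0.5 or less, where 6.66% of all genes lay. At least 2-fold higher on the shLincU array were 2, Rn28s1 and Scarna6, against 1.14% of all genes, and none was 2-fold lower, against 1.53%. At 1.5-fold or more were 17 of the 30, against 4.78%. A band round their own median, from 0.4 to 0.8, held 18 of the 30, against 8.04% of all genes, with 8 below it and 4 above it. Since the band was drawn round their values, its share only describes their spread. The 3 U1 probes, which are near-identical, enter these counts singly. Averaged to 1 reading, an alternative added after seeing the data, they leave 28 readings with a median of 0.60, of which 26 lay above 0, 17 at 0.5 or more, 15 at 1.5-fold or more and 2 at 2-fold or more.

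**Figure D1:**
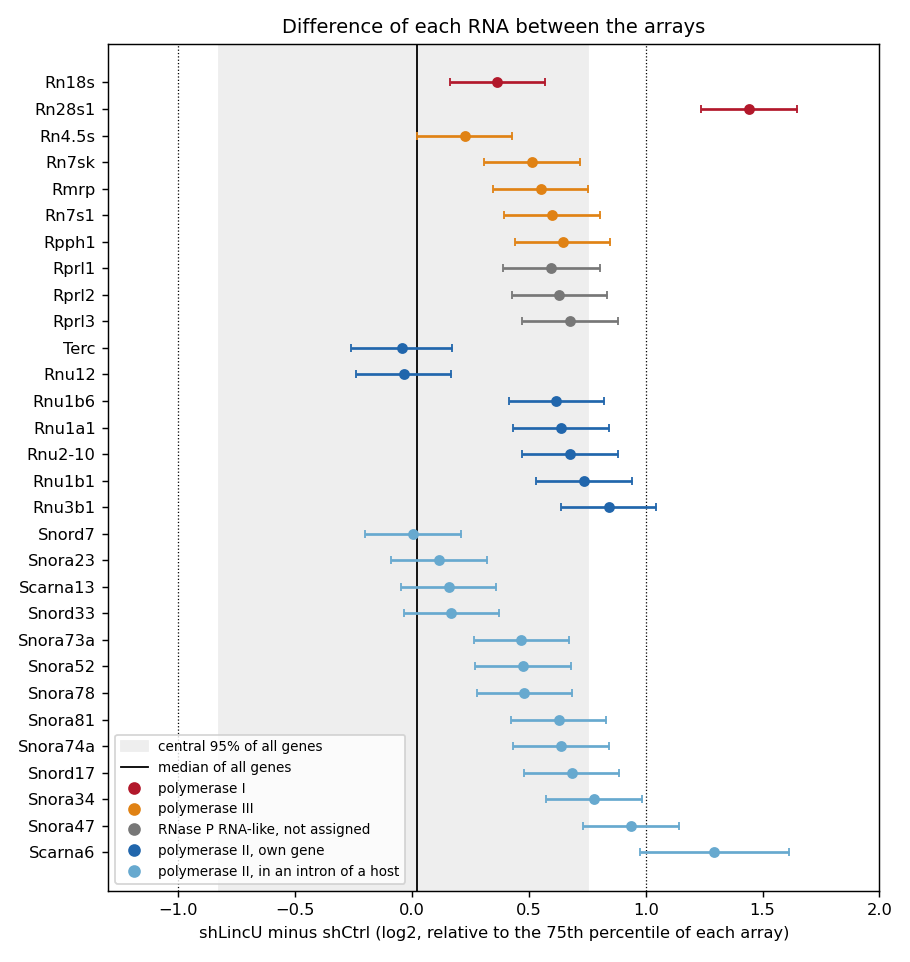
Difference of each of the 30 RNAs (log2, shLincU minus shCtrl, relative to the 75th percentile of each array), coloured by RNA polymerase, with the scanner's error as bars. The grey band holds the central 95% of all genes, from -0.82 to 0.75, the black line marks their median of 0.020, and dotted lines mark 2-fold. Most points lie between 0.4 and 0.8; without scaling the median of the 30 is 0.033 and with spike-in scaling it is -0.28.

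Before any scaling the same values read differently. The ratio of the processed intensities, shLincU over shCtrl, had a median of 1.02 over the 30 RNAs, with a range from 0.651 to 1.82, while over all genes its median was 0.681. As scanned, the signals of these RNAs were thus near equal in the median, while that of all genes was lower on the shLincU array. Without scaling, 17 of the 30 lay above 0 and the median was 0.033, with all genes at -0.55. With the 8 E1A controls, RNAs added to the samples, as the base for scaling, 3 of the 30 lay above 0 (Rn28s1, Scarna6 and Snora47), the median was -0.28 and all genes stood at -0.87. Each of these scalings moves every gene by the same amount, so the gap of 0.59 between the 30 RNAs and all genes is the same in each by construction. Absolute direction therefore depended on the scaling, and every difference below is relative to the other genes of the array.

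**Figure D2:**
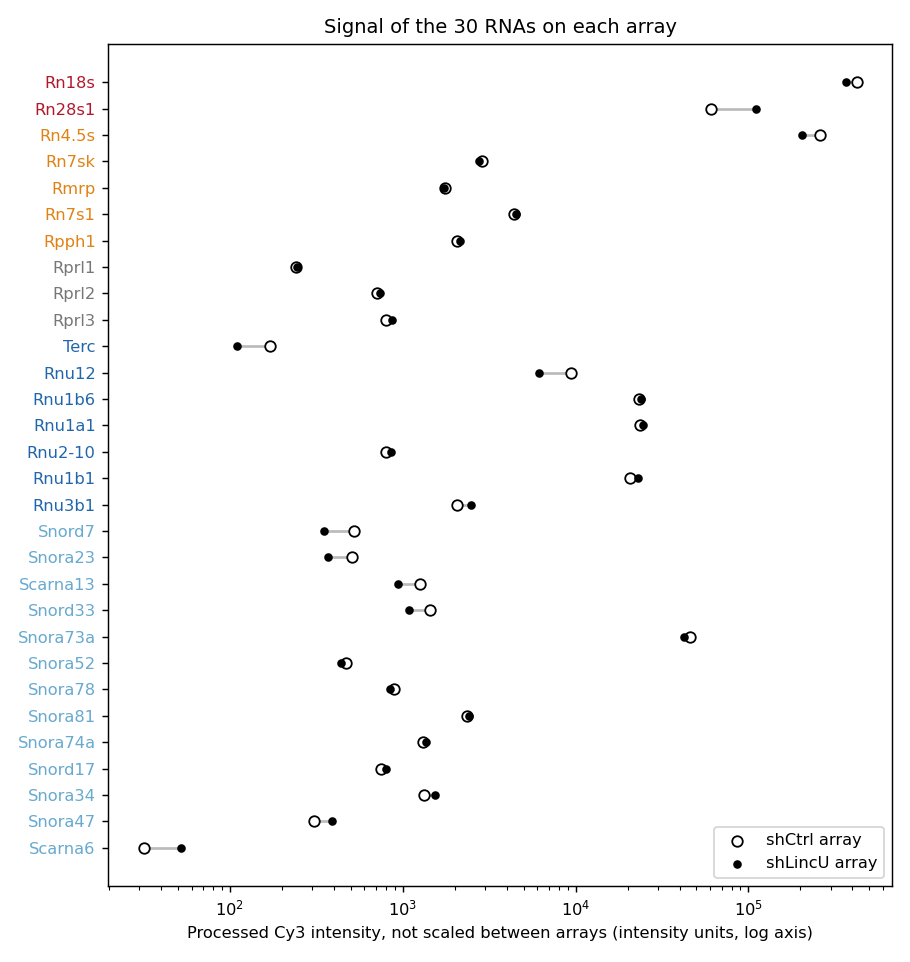
Processed Cy3 intensity of the 30 RNAs on the shCtrl array (open circles) and the shLincU array (filled circles), not scaled between arrays, on a log axis. Signals run from 31.9 to 423769 intensity units and most pairs of circles nearly coincide; levels of different probes are not comparable with each other.

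The 30 RNAs were also set against genes of similar signal. With all genes in bins of equal number by mean signal, the median difference of a bin ran from -0.0049 to 0.096, and 27 of the 30 RNAs lay above the median of their own bin. Of the genes in the brighter part, from the median level upward, 3.36% lay at 0.5 or more. The probes of these RNAs were richer in G and C than others, with a median of 52.5% against 43.3% for all probes measured. Over all probes the median difference moved with this content, from -0.032 below 40% to 0.10 at 55% and above. In that last class 14 of the 30 RNAs had a median of 0.62. From 50% to under 55%, 4 RNAs had 0.58 against 0.091 for all probes of the class, and from 45% to under 50%, 8 had 0.47 against 0.038. From 40% to under 45%, 2 RNAs had only 0.14 against 0.016, and below 40% 2 had 0.70. Position on the slide gave similar values: the 20 probes in the upper rows and the 10 in the lower rows each had a median of 0.61, with 13 and 6 at 0.5 or more, against 6.15% and 7.62% of the genes read there.

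**Figure D3:**
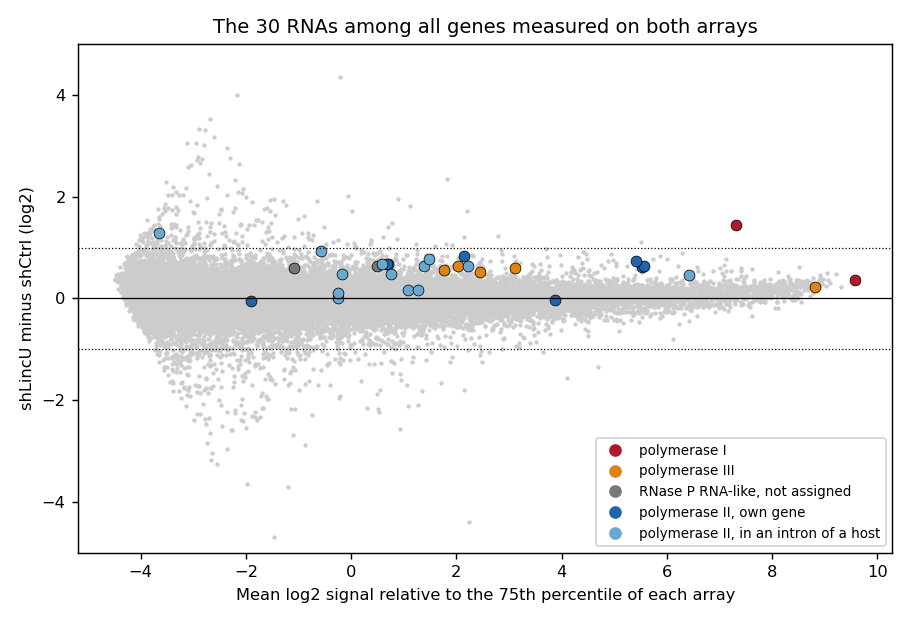
Difference between the arrays (log2, vertical) against mean log2 signal relative to the 75th percentile (horizontal) for all 21018 genes measured (grey) and the 30 RNAs (coloured by polymerase). Dotted lines mark 2-fold; Rn28s1 at 1.44 lies above the band of genes of similar signal, and Scarna6 at 1.29 lies among the dimmest.

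The ribosomal RNAs differed from each other. Rn28s1, the RNA of the large ribosomal subunit, read 60772 intensity units for shCtrl and 110838 for shLincU, the order kept for every pair of intensities below, a difference of 1.44 or 2.72-fold. The array lists a further RefSeq transcript for this probe, which the gene table used here does not name. Rn18s, the RNA of the small subunit, read 423769 and 366478, a difference of 0.37. Mature RNAs of both kinds are cut from 1 precursor made by polymerase I. Their differences lay further apart than the scanner's error of 0.20 on each; which transcripts each probe read was not tested. The Rn18s probe ranked 1 on both arrays, so forcing the arrays to 1 distribution sets its difference to 0 by construction. Neither probe was saturated, and neither spot was marked as an outlier. Both probes are shown because their readings differed. Capitals mark runs of 4 or more A, of which the Rn18s probe has 1 and the Rn28s1 probe none. Runs of AAAA stood in 31.9% of all probes and in 6 of these 30, and whether the RNAs hold such runs outside the probe was not examined. Coordinates here and below are those the array gives, in build mm9, and ribosomal RNA genes lie in repeats that no single position represents.
Rn18s, chr17:39984059-39984118, plus strand: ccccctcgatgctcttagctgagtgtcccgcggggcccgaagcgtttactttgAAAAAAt
Rn28s1, chr13:97960526-97960585, minus strand: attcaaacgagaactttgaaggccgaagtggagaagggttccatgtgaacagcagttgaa

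The 5 polymerase III RNAs all lay above 0, with a median of 0.55, and 4 of them lay at 0.5 or more. Rn7sk, the 7SK RNA that holds the elongation factor P-TEFb inactive, read 2876 and 2756 intensity units, a difference of 0.51. Rn7s1, a 7S RNA of the particle that takes nascent proteins to the endoplasmic reticulum, read 4425 and 4499, a difference of 0.60; the array lists Rn7s2 for the same probe. Rmrp, the RNA of RNase MRP, which acts in ribosomal RNA processing, read 1764 and 1734, a difference of 0.55. Rpph1, the RNA of RNase P, which trims the 5′ ends of transfer RNAs, read 2052 and 2153, a difference of 0.64. These 4 values lay within their scanner error of each other. Rn4.5s, a rodent RNA related in sequence to the B1 repeat, stood lower at 0.22, from 260693 and 204574. The array also lists a RIKEN cDNA for this probe. Whether the probe also read other transcripts that carry the repeat was not tested, so the value may not belong to this RNA alone. Polymerase III ends its transcripts at a run of T, and the capitals below mark any run of 4 or more T. The Rn7sk and Rn4.5s probes both end with such a run. For Rn7sk it lies at the end of the RNA. For Rn4.5s it lies 80 bases before the end of the 174-base entry in the RefSeq table. Whether the mature RNA ends at that run was not examined. TTTT closed 1.72% of all probes and stood somewhere in 30.5% of them and in 10 of these 30. The printed probes of Rmrp and Rpph1 hold no such run.
Rn4.5s: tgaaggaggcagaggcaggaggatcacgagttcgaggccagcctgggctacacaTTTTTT
Rn7sk, chr9:78023109-78023168, minus strand: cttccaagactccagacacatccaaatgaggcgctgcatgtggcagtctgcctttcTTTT
Rmrp, chr4:43505692-43505751, minus strand: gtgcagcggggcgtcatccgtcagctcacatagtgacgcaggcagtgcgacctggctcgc
Rpph1, chr14:51427130-51427189, minus strand: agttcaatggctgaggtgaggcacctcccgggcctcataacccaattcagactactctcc

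The 3 RNase P RNA-like transcripts, to which no polymerase was assigned, lay close together. Rprl1 read 241 and 245 intensity units, a difference of 0.60. Rprl2 read 710.04 and 738, a difference of 0.63, and Rprl3 read 806 and 864, a difference of 0.67. Their range was smaller than the scanner's error of a single probe and included the value of Rpph1.

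Among RNAs with polymerase II genes of their own, U12 differed from the other spliceosomal RNAs. U1 recognises the 5′ splice site and U2 the branch point of most introns, whereas U12 takes the place of U2 in the minor spliceosome. The U1 probes read 23641 and 24677 intensity units for Rnu1a1, 20571 and 23010.1 for Rnu1b1, and 23214 and 23905 for Rnu1b6. Their differences were 0.64, 0.74 and 0.62, within the scanner's error of each other. The capitals in the first 3 lines below mark where the U1 probes differ. Aligned, Rnu1b1 and Rnu1b6 shared 54 of 55 bases, and Rnu1a1 and Rnu1b1 shared 53 of 60. Such near-identical probes share signal, so the U1 variants cannot be told apart, and their mean was 0.66. Rnu2-10, a U2 RNA, read 798 and 857, a difference of 0.68, and the array lists a further RefSeq transcript for its probe. Rnu12, the U12 RNA, read 9352 and 6125, a difference of -0.036, below those of U1 and U2 by more than the scanner's errors. The U2 and U12 probes are printed after U1 because both hold ATTTTTG, in capitals, where the ring of Sm proteins binds. That string stood in 0.970% of all probes on the strand printed.
Rnu1a1: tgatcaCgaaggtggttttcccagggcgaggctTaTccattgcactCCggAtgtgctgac
Rnu1b1, chr3:96177970-96178029, plus strand: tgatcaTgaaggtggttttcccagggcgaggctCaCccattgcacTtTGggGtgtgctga
Rnu1b6, chr3:96177965-96178024, plus strand: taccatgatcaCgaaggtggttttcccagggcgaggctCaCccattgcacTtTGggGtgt
Rnu2-10, chr11:101488770-101488829, plus strand: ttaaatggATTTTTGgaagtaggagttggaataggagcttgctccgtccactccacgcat
Rnu12, chr15:82980096-82980155, plus strand: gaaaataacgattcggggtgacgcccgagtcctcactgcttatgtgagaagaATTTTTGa

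Rnu3b1 and Terc are the other polymerase II RNAs with their own genes. Rnu3b1, a U3 snoRNA needed for the first cuts of the ribosomal RNA precursor, read 2074 and 2495 intensity units, a difference of 0.84. The array lists Rnu3b2, Rnu3b3 and Rnu3b4 for the same probe, so the value belongs to the family. Terc, the RNA template of telomerase, read 170.1 and 111, a difference of -0.045. In the Terc probe the capitals mark CTAACCC, part of the template for telomere repeats, which stood in 0.231% of all probes. In the Rnu3b1 probe they mark CTGA, the box D near the end of the RNA. CTGA in the last 10 bases occurred in 4.18% of all probes and in 4 of these 30.
Rnu3b1, chr11:87285025-87285084, plus strand: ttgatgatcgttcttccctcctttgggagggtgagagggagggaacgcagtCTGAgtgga
Terc, chr3:96218697-96218756, minus strand: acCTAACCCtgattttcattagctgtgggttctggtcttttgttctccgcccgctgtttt

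The 13 snoRNAs and scaRNAs classed as intronic had a median of 0.48 and all lay above 0, with 6 at 0.5 or more. All 8 box H/ACA snoRNAs lay above 0, with a median of 0.55. Snora47 was highest among them at 0.94, from 305 and 392 intensity units. Snora34 stood at 0.78, from 1332 and 1534, and Snora74a at 0.64, from 1309 and 1367. Snora81 stood at 0.63, from 2339.8 and 2426, Snora78 at 0.48, from 896 and 839, and Snora52 at 0.48, from 468 and 437. Snora73a, known as U17 and needed for ribosomal RNA cleavage, read 45678 and 42417, a difference of 0.47. Snora23 was lowest at 0.11, from 507 and 369, and its spot had 2 neighbours that were discordant between the arrays. By name there were 3 box C/D snoRNAs, with U3, which also holds a box D, counted apart. Snord17 stood at 0.68, from 747 and 805, Snord33 at 0.17, from 1433 and 1081, and Snord7 at 0.0030, from 524 and 352. The 2 scaRNAs were Scarna13 at 0.16, from 1259 and 942, and Scarna6 at 1.29, from 31.9 and 52.4. Scarna6 had a scanner error of 0.32, wider than the 0.20 of most, and its spot too had 2 discordant neighbours. Under another background correction its difference was 0.79.

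The probes below are shown because their RNAs span the range from Scarna6 to Snord7. Capitals mark ACA placed 3 bases before the end of the RNA, the box of H/ACA RNAs, or CTGA near the end, the box D of C/D RNAs, where the probe reaches that end. ACA at that place occurred in 2.03% of all probes. Snora73a and Scarna13 both carry it, with differences of 0.47 and 0.16. The Snora34 probe stops 1 base before the end of its RNA and holds ACA close to that end at another spacing, so it was not marked.
Scarna6, chr1:89681222-89681281, plus strand: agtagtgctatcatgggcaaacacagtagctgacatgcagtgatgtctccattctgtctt
Snora47, chr13:96100607-96100666, plus strand: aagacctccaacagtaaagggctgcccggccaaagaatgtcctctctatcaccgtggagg
Snora34, chr15:98350149-98350208, minus strand: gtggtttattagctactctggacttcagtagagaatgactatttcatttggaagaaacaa
Snord17, chr2:144091718-144091777, minus strand: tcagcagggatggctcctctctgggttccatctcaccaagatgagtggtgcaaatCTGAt
Snora73a, chr4:131908690-131908749, minus strand: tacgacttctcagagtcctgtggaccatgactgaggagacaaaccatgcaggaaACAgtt
Snord33, chr7:52382243-52382302, minus strand: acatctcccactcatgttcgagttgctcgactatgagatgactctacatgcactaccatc
Scarna13, chr12:106269285-106269344, minus strand: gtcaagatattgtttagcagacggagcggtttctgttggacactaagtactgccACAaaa
Snora23, chr7:117189882-117189941, plus strand: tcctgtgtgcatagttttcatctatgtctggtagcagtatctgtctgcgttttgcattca
Snord7, chr11:83107838-83107897, plus strand: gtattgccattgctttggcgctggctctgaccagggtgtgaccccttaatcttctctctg

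Each of the 13 intronic RNAs had a host transcript on the same strand that was measured. The hosts had a median of 0.15 and a range from -0.43 to 0.28, and none lay at 0.5 or more. The intronic RNA lay above its host in 9 of 13 pairs, with a median gap of 0.39. The widest gaps were Scarna6 over Atg16l1, an autophagy gene, at 0.096, and Snord17 over Snx5, a sorting nexin, at -0.43. Snora34 stood over Kansl2, a subunit of a histone acetyltransferase complex, at -0.22, and Snora47 over Zbed3 at 0.058. Among noncoding hosts, Snhg3, which holds Snora73a, stood at 0.075, Snhg4, which holds Snora74a, at 0.26, Snhg9, which holds Snora78, at -0.093 and Snhg10, which holds Scarna13, at 0.16. Eif4a2, a translation initiation helicase that holds Snora81, stood at 0.24. Rplp2 and Rpl13a, ribosomal protein genes that hold Snora52 and Snord33, stood at 0.28 and 0.18. Ipo7, a nuclear import receptor that holds Snora23, stood at 0.15, and AA465934, which holds Snord7, at 0.17. A further noncoding RNA that contains Snord7, AI450353, had no measured value, and its strand was not known.

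The pairs divided by what the array lists for the snoRNA's probe, a split chosen after the values were seen and given as a description. For 7 of the probes the array lists another transcript as well. It is Mir3069 for Scarna13, AI450353 for Snord7 and, for the rest, an Ensembl or RIKEN transcript not matched to a gene here. Whether any of these is the measured host was not examined. The 7 RNAs had a median of 0.17 with hosts at 0.18. Of them 5, Scarna13, Snora23, Snora52, Snord33 and Snord7, lay within their scanner error of the host. For the other 6 no other transcript is listed. These had a median of 0.73 with hosts at -0.017 and a median gap of 0.94. Snora74a and Snora81, whose probes list another transcript, lay above their hosts at 0.64 and 0.63. How much of a probe's signal came from host RNA was not tested.

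**Figure D4:**
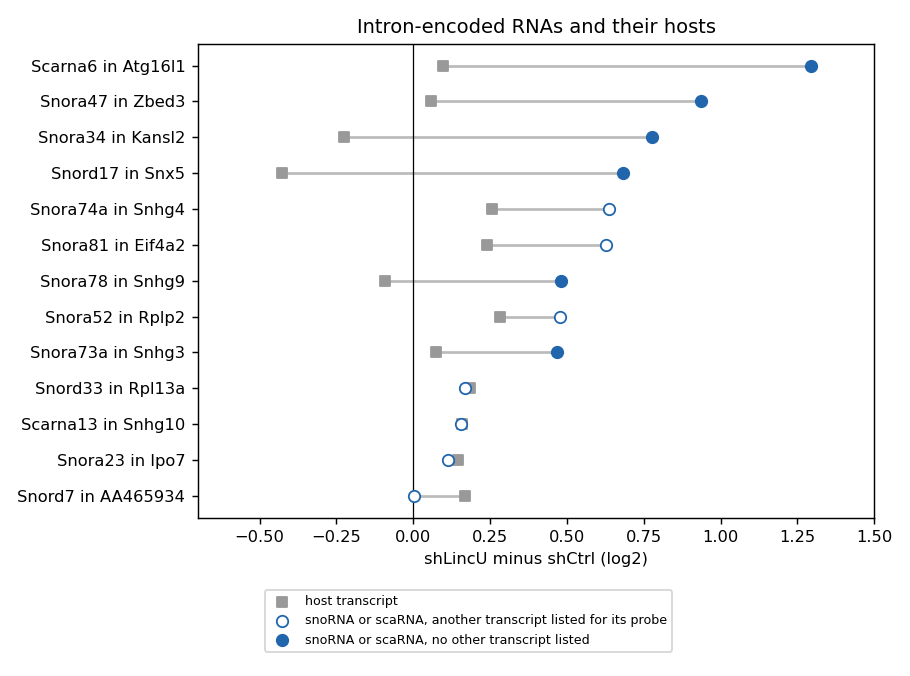
Difference (log2, shLincU minus shCtrl, relative to the 75th percentile) of 13 intron-encoded RNAs (circles) and of the host transcript on the same strand (squares). Open circles mark probes for which the array lists another transcript; the hosts lie between -0.43 and 0.28 and the filled circles between 0.47 and 1.29.

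Lists of the proteins that bind, make or process these RNAs had medians from -0.25 to 0.16, against 0.61 for the RNAs. No gene of these protein lists was 2-fold apart, where 1.14% of all genes were higher and 1.53% lower, so few would be counted in lists of this size. The 7 box C/D proteins had a median of 0.16, among them the methyltransferase Fbl at 0.23 and the assembly factor Ruvbl1 at 0.31, and Nop56 was lowest at -0.081. The 8 box H/ACA and telomerase proteins had a median of -0.031, with the assembly factors Naf1 at 0.27 and Shq1 at 0.24, Wrap53 at -0.23 and Gar1 at -0.18. Tert, the protein partner of Terc, stood at 0.10. The 38 snRNP proteins had a median of 0.084, from Snrpd1 and Lsm7, both at 0.35, to Snrpd3 at -0.40 and Snrpn at -0.31. The 2 probes of Snrpd3 had an SD of 0.58 between their differences, against a median of 0.18 over genes with several probes. Of 22 genes for snRNA transcription and 3′ ends, with a median of -0.064, the elongation factor Ell2 at -0.75 was the only one beyond 0.5 in either direction. Ints5 and Snapc2, at 0.28 each, were highest there and Ints12 followed Ell2 at -0.26.

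Genes of the polymerases behaved likewise. The 23 genes of polymerase III and its factors had a median of 0.087, with Brf2 at 0.32 and Gtf3c4 at 0.30 highest, and Gtf3c2 and Polr3d, both at -0.43, lowest. The 15 genes of polymerase I had a median of 0.12, with Polr1a at 0.30 and Rrn3 at 0.27 highest. Polr1b at -0.49 and Polr1d at -0.15 were lowest, but the 2 probes of Polr1b had an SD of 0.74 between their differences. The 7 genes of the 7SK particle had a median of -0.11, with Hexim2 at 0.32 and Larp7, which binds the 3′ end of 7SK, at -0.32. The 10 proteins of RNase P and MRP had a median of -0.018, from Pop1 at 0.13 to Rpp30 at -0.21. Of 8 signal recognition particle proteins 7 were measured, with a median of -0.25; Srp68 at 0.18 was the only one above 0, and Srp54a at -0.42 was lowest. The 21 genes of the nuclear exosome and of RNA tailing had a median of -0.040, with Exosc2 at 0.50 and the deadenylase Parn at 0.44 highest and Rbm7 at -0.42 and Zcchc8 at -0.38 lowest. Of 20 snoRNA host RNAs 19 were measured, with a median of 0.13, from Snhg8 at 0.41 to Snhg5 at -0.18.

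Replication-dependent histone genes, taken by name and mostly with messages that also end without a poly(A) tail, stood between. Of 56 on the array 49 were measured, with a median of 0.37; 41 lay above 0 and 21 at 0.5 or more, where 6.75% of all genes lay. H4c8 at 1.11 was the only one at least 2-fold higher, and H1f3 followed at 0.85. H2bc22 at -0.54 and H2bc23 at -0.47 were lowest. Each histone gene entered these counts singly, and whether their probes share signal was not tested. The protein-coding genes as a whole had a median of 0.0025 and long noncoding RNAs 0.074.

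**Figure D5:**
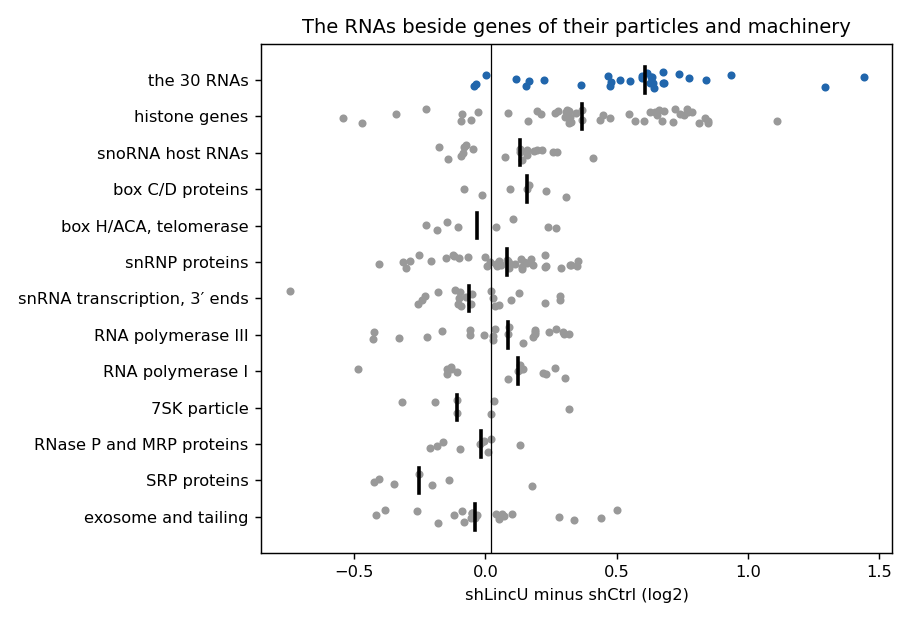
Difference (log2, shLincU minus shCtrl, relative to the 75th percentile) of the 30 RNAs and of the genes in 12 lists, each point a gene and each black bar a median, with the thin line at the median of all genes. The 30 RNAs have a median of 0.61 and the histone genes 0.37, while the other lists lie between -0.25 and 0.16; without scaling every value shifts by -0.57.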

How the data were processed

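Total RNA from 46C cells, 0.2 ug per sample, was labelled with Cy3 and hybridised to Agilent arrays, 1 per group, per the labels. The deposited scanner files hold processed intensity values per spot, which the authors extracted with Agilent software (Feature Extraction, version 10.7.1.1, in the submitters' processing notes); per the file headers the background was corrected by spatial detrending. The deposited files also give each intensity its error from the scanner's error model, the uncorrected spot and background intensity, flags of 0 or 1, and each probe's position and sequence. The deposited value table holds log2 values with equal quantiles on both arrays; its method of normalization was not given in the sources used here, and it served as an alternative.

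Control spots were left out, as were outlier spots, 98 for shCtrl and 138 for shLincU. Each array's log2 intensity was taken relative to its 75th percentile over probes. A gene's difference averages those of its probes that both arrays read well above background. A RefSeq gene table gave names to 32994 probes through the accession, 10224 through the symbol and 520 through a synonym; the remaining 12867 carry the array's name. The rule for named genes took every RNA at least 2-fold apart, the highest and lowest of each class and list, every scaRNA, the ribosomal, polymerase III, U3 and telomerase RNAs, and the hosts of named snoRNAs. The rest of the 30 were also named, chosen after their values were seen. The members and lists were chosen with earlier results of these data known. Polymerases, classes and the origin from introns came from textbook knowledge. Hosts were matched by gene span and strand, and whether a snoRNA lay in an intron or an exon was not examined. Motifs were searched on the printed strand alone, since a probe reads 1 strand. The probe sequence of Rn7s1 is not reported here.

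Alternatives covered background correction, scaling, filters, slide rows and fold size. The steps were tested on simulated data. Python 3.11.15, pandas 2.3.3, R 4.3.3 and limma 3.58.1 (normexp, quantile and cyclic loess only) were used. The number of arrays, 1 per group, limits the precision.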

Additional observations from a re-analysis of the deposited data

How the results depend on the processing

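No paired analysis was possible because there was 1 array per group, which also leaves none to omit in turn. The median of the 30 RNAs was 0.61. It was 0.53 with normexp background correction, 0.55 as a mean, -0.28 with E1A spike-in scaling and 0.033 with no scaling, an alternative chosen after seeing the data. Its gap to the median of all genes lay between 0.45 and 0.60 over 15 alternatives. Of these, median centring, E1A scaling and no scaling leave the gap unchanged by construction. Keeping outlier spots, taking the brightest probe, dropping the background filter and using positive and significant probes could only move the median of all genes. Under these, the 30 RNAs were fixed, as each had 1 probe, not an outlier and well above background. The limits on level, neighbours and rows only left RNAs out. Taking the U1 probes as 1 reading, also added after seeing the data, gave a median of 0.60 and the same 2-fold counts. The 2 RNAs at least 2-fold higher became 1 with normexp, 1 among the 26 at or above the median level, 1 without spots beside discordant spots (28 RNAs), 1 in the upper and 1 in the lower rows. They became 0 with E1A scaling, with no scaling and at 3-fold, and 17 at 1.5-fold; none was 2-fold lower in any of these. Over all genes, 240 higher and 322 lower calls became 95 and 108 with normexp, 1464 and 1330 without the background filter, 952 and 904 for probes positive and significant, 43 and 6741 with E1A scaling, and 72 and 1922 with no scaling. Quantile normalization and the deposited value table gave Rn18s, ranked 1 on both arrays, a difference of 0 by construction, and Rn4.5s -0.050 and -0.034. Median centring put Snord7 below 0 too, and normexp turned Terc to 0.10. Rn28s1 lay between 1.30 and 1.44 except with E1A scaling (0.55) and no scaling (0.87), and Scarna6 was 0.79 with normexp. The cause of the other shifts was not tested.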
